A study of Mus musculus with 35 samples.

Results

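The 42 genes described here build or regulate the motile cilia that ependymal cells carry, and they were taken by symbol from a list of such genes and matched to the Ensembl identifiers of the count files. All 42 were found among the 52636 genes of the files. They were compared with 18 genes of choroid plexus epithelium, led by Ttr, which encodes the thyroid hormone carrier transthyretin. The libraries came from cells of the basolateral amygdala of female mice, cut out of stained sections by laser capture in a portion labelled anterior and a portion labelled posterior. The mice were of the inbred strain C57BL/6J or the hybrid B6D2F1N, and lived in standard cages or in enriched housing with daily access to a playground. All mice were food restricted and trained for a touchscreen test of judgment bias. There were 35 libraries of 19 mice, 16 anterior and 19 posterior, and 16 mice gave both portions (6 C57BL/6J and 10 B6D2F1N). The anterior libraries came from 4 standard and 2 enriched C57BL/6J and from 5 standard and 5 enriched B6D2F1N mice, and the posterior ones from 4, 4, 5 and 6 mice in the same order. Mice were numbered within each strain and housing, so that mouse 3 of a group is the same animal in both portions.

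Motile cilia beat by dynein motors that slide the outer microtubule doublets of the axoneme against each other, under the control of radial spokes and of a central pair of microtubules. In the brain, ependymal cells line the ventricles and move cerebrospinal fluid with tufts of such cilia, and the transcription factor FOXJ1, together with factors of the RFX family, switches on the genes that build them. The choroid plexus is a fluid-secreting epithelium inside the ventricles, and neurons and astrocytes of the amygdala carry a single primary cilium that has no dynein arms. Which cell type the cilia transcripts of these libraries came from, choroid plexus epithelium included, was not tested.

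The libraries held 16938534 to 27352623 counts on genes (median 21409708). At this depth, 3 counts, the limit below which a level was taken as not detectable, corresponded to 0.109 to 0.173 CPM, the usual read count per library size, here with the library size scaled by the TMM method of edgeR. In the mouse numbered 1 of the B6D2F1N standard group, Xist was at 0 in both portions, and in the other 33 libraries it was at 54.4 to 206 CPM. The anterior library of B6D2F1N enriched mouse 1 stood apart from the other 15 anterior libraries by its Ttr level of 886 CPM, against 2.37 to 39.8 CPM. In bulk samples of this kind, fewer cells of a type and less RNA in each cell cannot be told apart. Anterior and posterior are used as in the labels, and the methods of the study give their distances from bregma in the reverse of the anatomical order, so that the sign of every difference between portions rests on the labels.

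The summed cilia transcripts were higher in the posterior than in the anterior library of each mouse with both portions, and among posterior libraries they differed widely from mouse to mouse. Summed over the 42 genes, the level was 116 to 228 CPM in the 16 anterior libraries (median 161) and 203 to 918 CPM in the 19 posterior libraries (median 315). It was higher in the posterior library of all 16 mice with both portions. The posterior sums of C57BL/6J standard mice were 224, 249.9, 280.0 and 255 CPM, and those of C57BL/6J enriched mice 203, 253, 918 and 315 CPM. C57BL/6J enriched mouse 3 had the highest sum of all libraries, while the other 7 posterior libraries of this strain lay close together. In B6D2F1N mice the posterior sums were 387, 229, 464, 552 and 372 CPM in standard housing. In enriched housing they were 807, 741 and 711 CPM in mice 1, 3 and 4 and 286, 348 and 305 CPM in mice 2, 5 and 6. The sum of a library is weighted toward the members with many counts, and Ccdc39, Drc1, Cfap54, Cfap69 and Dnah9 had the highest medians of the anterior libraries. The share of counts on no feature also differed between the portions. Its median was 16.9% in anterior and 18.4% in posterior libraries of C57BL/6J mice, higher in the posterior library of 4 of 6 mice, and 17.6% and 22.2% in those of B6D2F1N mice, higher in 8 of 10. In the posterior libraries of B6D2F1N enriched mice 1, 3 and 4 it was 22.8, 24.0 and 26.4%, and in that of C57BL/6J enriched mouse 3 it was 19.7%. Its part in the values of the members was not tested.

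**Figure D1:**
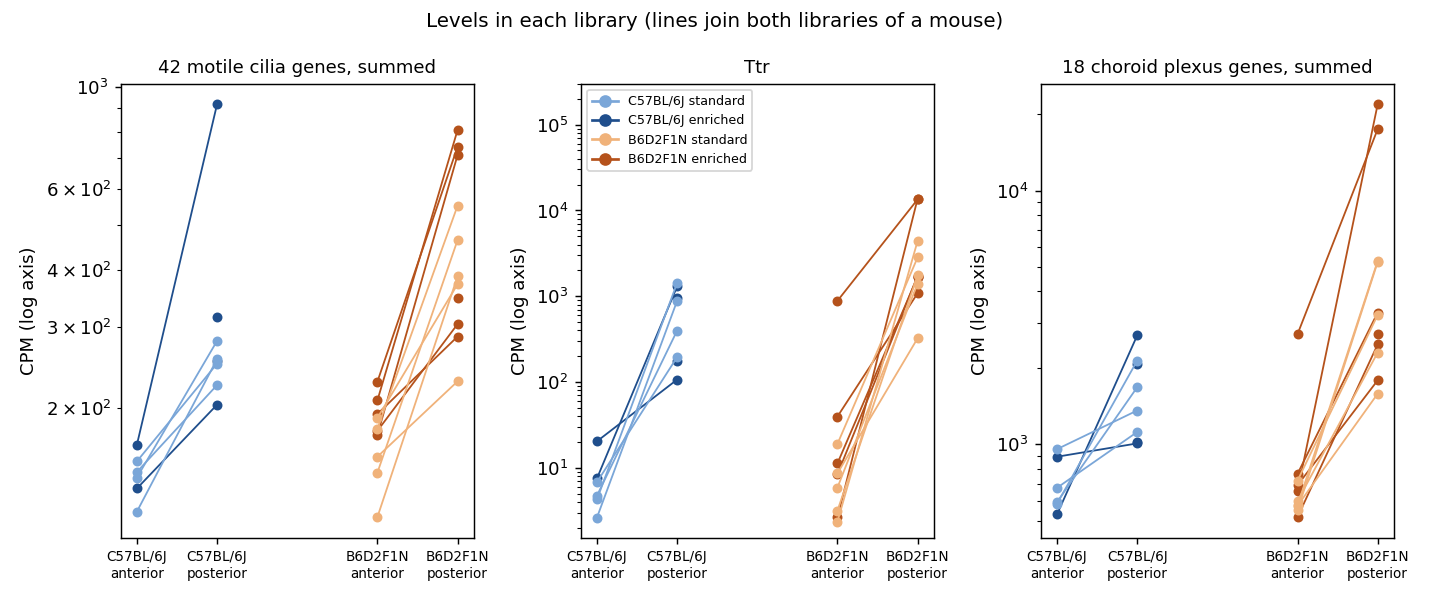
Summed CPM of the 42 motile cilia genes (left), CPM of Ttr (middle) and summed CPM of 18 choroid plexus genes (right) in each library, on log axes; each point is 1 library, lines join the libraries of a mouse and colours mark strain and housing. The cilia sum runs from 203 to 918 CPM in the posterior libraries, with C57BL/6J enriched mouse 3 at the top. The Ttr level of this mouse lies among those of the other mice of its strain, and its choroid plexus sum (2683 CPM) is the highest of its strain.

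The comparison of the portions asked which of the cilia genes differ between the anterior and the posterior amygdala of the same mouse. In C57BL/6J mice, 12 of the 42 genes were higher in the posterior portion at an adjusted p of at most 0.05, and none was lower (edgeR's quasi-likelihood test with the mouse as a block, Benjamini-Hochberg adjustment over 25751 genes). Among all genes tested, 1.54% were called higher. In B6D2F1N mice 25 of 42 were higher and none lower, against 1.62% of 27761 genes called higher. The median log2 fold change of the 42 genes was 1.52 in C57BL/6J and 2.1 in B6D2F1N mice, beside 0.01 and 0.15 over all genes tested. At an unadjusted p under 0.05, 26 members in C57BL/6J and 37 in B6D2F1N mice were higher and none lower, against 6.38 and 8.29% of all genes that were higher. The strains were fitted on different mice. Of the calls, 11 were made in both strains, which is 11 of 12 in C57BL/6J and 11 of 25 in B6D2F1N mice, against 0.632% of the 24855 genes tested in both. Cfap54 was called in C57BL/6J alone, and 16 members were called in neither. All 42 genes passed the minimum of 10 counts in total in both fits. Only in the fit of C57BL/6J did leaving out 1 mouse move the number of calls by more than 1.5 times. Without enriched mouse 3, 7 members were called there, beside 353 of 25059 genes called higher. With no filter on low counts 21 members and 629 of 31674 genes were called higher in C57BL/6J mice, and in standard housing alone 5 members and 350 of 24172 genes. In B6D2F1N mice 13 members were called when enriched mice 1, 3 and 4 were left out together, and 22 without the mouse that lacked Xist. Calls over all genes fell as well, from 451 of 27761 higher to 125 of 26332 and 360 of 27480. In standard and enriched B6D2F1N mice alone 8 and 15 members were called, beside 83 and 193 of 25338 genes called higher.

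**Figure D2:**
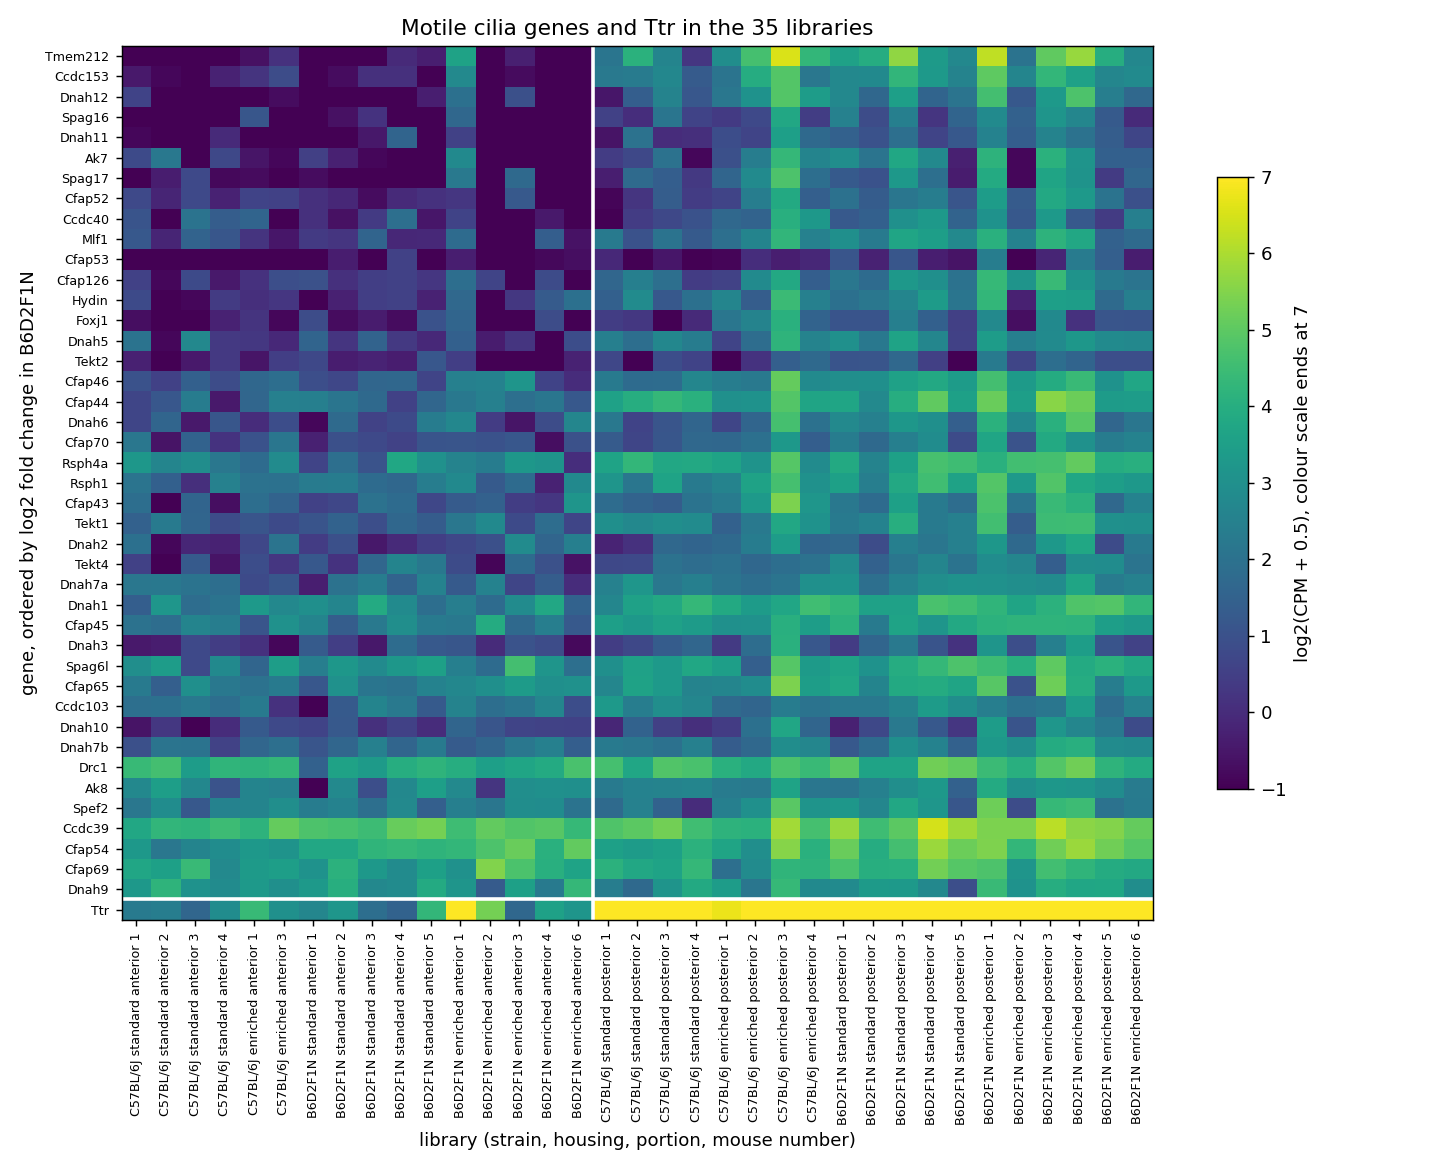
Levels of the 42 cilia genes and of Ttr (rows) in the 35 libraries (columns, anterior left of the white line), as log2(CPM + 0.5) with the colour scale ending at 7. The uppermost genes, from Tmem212 to Dnah11, are dark in most anterior libraries and lighter in that of B6D2F1N enriched mouse 1, whereas Drc1, Ccdc39, Cfap54, Cfap69 and Dnah9 near the bottom are lit on both sides.

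The regulator of the module, Foxj1 (ENSMUSG00000034227, chromosome 11 of GRCm38, 116330704 to 116335399), was low in most libraries. In anterior libraries it was at 0.114, 0, 0 and 0.346 CPM in C57BL/6J standard, 0.648 and 0.0501 in C57BL/6J enriched, 1.31, 0.0949, 0.261, 0.0950 and 1.51 in B6D2F1N standard and 2.53, 0, 0, 1.32 and 0 CPM in B6D2F1N enriched mice. In posterior libraries it was at 0.867, 0.730, 0 and 0.465 CPM in C57BL/6J standard, 3.92, 5.44, 16.5 and 2.42 in C57BL/6J enriched and 1.62, 1.61, 5.03, 2.22 and 0.922 CPM in B6D2F1N standard mice. The 6 B6D2F1N enriched mice had 0.108 at the lowest, 1.62 at the median and 6.38 at the highest CPM. Only the enriched C57BL/6J mice lay above all anterior libraries of their strain without exception, and the other posterior groups overlapped the anterior ones. The log2 fold change between portions was 3.41 ± 1.08 in C57BL/6J (SE; adjusted p = 0.109) and 2.84 ± 1.05 in B6D2F1N mice (adjusted p = 0.168), and it missed the threshold in both, with a higher posterior value in 5 of 6 and 8 of 10 mice. With DESeq2 it passed in both strains. Of 15 other regulators of multiciliated cells, 14 were tested and 2 were called higher in each strain, and the median log2 fold changes were 1.00 and 0.97. Rfx3, an RFX factor of ciliated cells, was called in both strains (1.10 ± 0.24, adjusted p = 0.0102, and 0.67 ± 0.16, adjusted p = 0.0162), Rfx1 in C57BL/6J (1.24 ± 0.28, adjusted p = 0.0163) and Trp73 in B6D2F1N mice (4.59 ± 1.24, adjusted p = 0.0461).

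Tmem212 (ENSMUSG00000043164, chromosome 3, 27866066 to 27896368), a membrane protein known as a marker of ependymal cells, had the smallest p-value of the members between portions in both strains. It was at 0 in each library of C57BL/6J standard, 0.139 and 0.601 CPM in C57BL/6J enriched, 0, 0, 0, 0.475 and 0.303 in B6D2F1N standard and 11.7, 0, 0.320, 0 and 0 CPM in B6D2F1N enriched anterior libraries. In posterior libraries it was at 3.80, 16.6, 5.57 and 0.697 CPM in C57BL/6J standard, 7.09, 24.6, 92.2 and 19.1 in C57BL/6J enriched and 11.4, 14.9, 50.7, 9.78 and 6.10 CPM in B6D2F1N standard mice. In the B6D2F1N enriched mice it was at 3.63 at the lowest, 24.1 at the median and 75.3 at the highest CPM. The portions did not overlap in C57BL/6J mice, and in B6D2F1N mice they overlapped through the anterior library of enriched mouse 1 alone. Tmem212 rose by a log2 fold change of 7.40 ± 0.54 in C57BL/6J (SE; adjusted p = 3.1e-07) and 6.62 ± 0.77 in B6D2F1N mice (adjusted p = 5.67e-05), in 6 of 6 and 10 of 10 mice. Ccdc153, a coiled-coil protein that marks the same cells, rose by 4.27 ± 0.69 in C57BL/6J (SE; adjusted p = 0.00102) and 6.22 ± 0.73 in B6D2F1N mice (adjusted p = 6.58e-05). Its group means, given here and below as mean ± SD in the order C57BL/6J standard, C57BL/6J enriched, B6D2F1N standard and B6D2F1N enriched, were 0.157 ± 0.158, 0.976 ± 0.463, 0.248 ± 0.299 and 1.27 ± 2.80 CPM in anterior libraries (n = 4, 2, 5 and 5) and 4.21 ± 1.70, 12.8 ± 11.7, 9.24 ± 5.46 and 13.4 ± 10.2 CPM in posterior ones (n = 4, 4, 5 and 6).

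The radial spokes were represented by their head proteins Rsph1 and Rsph4a. Rsph1 had anterior group means of 2.95 ± 2.01, 3.51 ± 0.0773, 3.91 ± 0.986 and 3.60 ± 2.71 CPM and posterior means of 7.20 ± 3.83, 12.4 ± 8.57, 12.9 ± 6.60 and 16.5 ± 9.30 CPM. Its log2 fold change was 1.5 ± 0.53 in C57BL/6J (SE; adjusted p = 0.165) and 2.07 ± 0.40 in B6D2F1N mice (adjusted p = 0.00499), so that it rose in B6D2F1N mice. Rsph4a had 6.44 ± 2.1, 4.89 ± 2.65, 5.39 ± 5.09 and 5.55 ± 3.34 CPM in anterior and 14.5 ± 3.07, 14.0 ± 10.4, 15.7 ± 8.06 and 21.5 ± 7.19 CPM in posterior libraries and rose in both strains, by 1.49 ± 0.30 in C57BL/6J (SE; adjusted p = 0.00549) and 2.13 ± 0.35 in B6D2F1N mice (adjusted p = 0.0016). Both spoke genes thus had reads in anterior libraries, and their posterior values overlapped the anterior ones.

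Tektins are filament proteins of the outer doublets. Tekt1 had 2.66 ± 1.30, 1.46 ± 0.293, 2.02 ± 0.534 and 3.18 ± 2.2 CPM in anterior and 6.88 ± 0.571, 6.99 ± 4.92, 6.97 ± 4.87 and 14.1 ± 9.49 CPM in posterior libraries, with log2 fold changes of 1.62 ± 0.47 in C57BL/6J (SE; adjusted p = 0.0715) and 1.94 ± 0.47 in B6D2F1N mice (adjusted p = 0.0228). Tekt4 had 0.764 ± 0.877, 1.02 ± 0.454, 2.94 ± 1.95 and 1.19 ± 1.19 CPM in anterior and 2.26 ± 1.25, 3.22 ± 0.369, 4.48 ± 1.79 and 5.45 ± 2.05 CPM in posterior libraries, and its log2 fold changes were 2.12 ± 0.83 in C57BL/6J (SE; adjusted p = 0.23) and 1.72 ± 0.63 in B6D2F1N mice (adjusted p = 0.161). Tekt2 was at 0 to 2.85 CPM in posterior libraries of C57BL/6J and 0 to 4.29 CPM in those of B6D2F1N mice, with adjusted p-values of 0.874 and 0.239, and 10.4% of its windows (stretches of exon of the read length of 72 bases) also occur in other genes, mainly Gm12945. Tekt1 alone of the tektins was called, in B6D2F1N mice.

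The central pair and its projections held both large and small changes. Spag16 and Spag17, proteins of the central apparatus, were at 0 in most anterior libraries. Spag16 had 0 in every library, 0.857 ± 1.21, 0.154 ± 0.272 and 0.537 ± 1.20 CPM in the anterior groups and 1.59 ± 1.53, 4.04 ± 6.18, 2.95 ± 2.09 and 4.28 ± 3.17 CPM in the posterior groups, and rose by 6.31 ± 1.54 in C57BL/6J (SE; adjusted p = 0.0254) and 5.76 ± 1.02 in B6D2F1N mice (adjusted p = 0.00265). Spag17, of whose windows 12.7% also occur in other genes, mainly Wdr3, rose by 4.09 ± 1.00 in C57BL/6J (SE; adjusted p = 0.0257) and 5.49 ± 0.95 in B6D2F1N mice (adjusted p = 0.0022). Hydin, the very large protein whose loss causes hydrocephalus in mice, was at 1.25, 0, 0.0457 and 0.806 CPM in anterior libraries of C57BL/6J standard mice and at 2.23, 6.81, 1.79 and 3.39 CPM in their posterior libraries. In C57BL/6J enriched mice it was at 0.556 and 0.702 CPM in anterior libraries and at 5.70, 2.09, 21.2 and 5.05 CPM in posterior ones. In B6D2F1N standard mice the values were 0, 0.332, 0.889, 0.950 and 0.353 CPM and 3.41, 3.96, 5.69, 10.0 and 3.78 CPM. In B6D2F1N enriched mice they were 2.79, 0, 0.732, 1.96 and 3.34 CPM in anterior libraries and 0.325 at the lowest, 7.72 at the median and 19.2 at the highest CPM in posterior ones. The portions of C57BL/6J mice did not overlap in Hydin, and in B6D2F1N mice the posterior libraries of enriched mice 2 and 5 lay within the anterior range. Hydin rose by 3.68 ± 0.79 in C57BL/6J (SE; adjusted p = 0.0102) and 3.21 ± 0.54 in B6D2F1N mice (adjusted p = 0.0017), in 6 of 6 and 10 of 10 mice, and in C57BL/6J its adjusted p was 0.0556 without enriched mouse 3. Spag6l rose in B6D2F1N mice by 1.24 ± 0.26 (adjusted p = 0.00811), and its value in C57BL/6J was 1.26 ± 0.37 (adjusted p = 0.0745). Spef2, another central apparatus protein, had log2 fold changes of -0.24 ± 0.53 in C57BL/6J (SE; adjusted p = 0.93) and 0.83 ± 0.37 in B6D2F1N mice (adjusted p = 0.281), and was higher in the posterior portion of 2 of 6 and 8 of 10 mice.

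The dynein heavy chains, the motors themselves, did not move as a block. Of the 11 heavy chains, Dnah1 and Dnah12 were called in C57BL/6J mice, and Dnah1, Dnah5, Dnah7a, Dnah11 and Dnah12 in B6D2F1N mice. Among the outer arm chains, Dnah5 had 2.65 ± 2.81, 0.596 ± 0.205, 1.35 ± 1.00 and 0.908 ± 0.899 CPM in anterior and 4.70 ± 1.14, 6.95 ± 7.66, 6.11 ± 4.06 and 7.24 ± 1.94 CPM in posterior libraries, and log2 fold changes of 2.08 ± 0.77 in C57BL/6J (SE; adjusted p = 0.185) and 2.79 ± 0.55 in B6D2F1N mice (adjusted p = 0.00546). Dnah11 had 0.129 ± 0.223, 0 in every library, 0.536 ± 1.08 and 0.192 ± 0.430 CPM in anterior and 1.20 ± 1.59, 4.06 ± 4.68, 1.99 ± 0.837 and 3.25 ± 1.81 CPM in posterior libraries, and log2 fold changes of 5.21 ± 1.45 in C57BL/6J (SE; adjusted p = 0.0556) and 5.69 ± 1.14 in B6D2F1N mice (adjusted p = 0.00648). Both were called in B6D2F1N mice, and for Dnah11 the call was lost without the mouse block (adjusted p = 0.0845). In C57BL/6J mice the log2 fold change of Dnah11 ran from 4.20 to 6.88 when 1 mouse was left out, and it passed the threshold in 2 of 6 such fits.

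Dnah9, the third outer arm chain, was detected in every library and was not called, with anterior and posterior values that overlapped widely. In anterior libraries it was at 9.14, 18.1, 8.0 and 6.74 CPM in C57BL/6J standard, 9.31 and 7.42 in C57BL/6J enriched, 9.57, 15.8, 6.17, 6.70 and 14.4 in B6D2F1N standard and 8.51, 1.96, 11.3, 4.43 and 19.6 CPM in B6D2F1N enriched mice. In posterior libraries it was at 4.75, 2.84, 8.26 and 14.0 CPM in C57BL/6J standard, 10.2, 3.88, 20.1 and 6.45 in C57BL/6J enriched and 6.54, 9.71, 9.34, 6.11 and 1.41 CPM in B6D2F1N standard mice. In B6D2F1N enriched mice it was at 7.04 at the lowest, 12.9 at the median and 21.2 at the highest CPM. Its log2 fold changes were -0.10 ± 0.44 in C57BL/6J (SE; adjusted p = 0.973) and 0.04 ± 0.42 in B6D2F1N mice (adjusted p = 0.983), the largest p-value of any member in B6D2F1N mice, and 4 of 6 and 5 of 10 mice had the higher value in the posterior portion.

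Among the inner arm chains, Dnah1 had 4.38 ± 2.91, 7.76 ± 2.19, 7.45 ± 4.14 and 6.05 ± 4.44 CPM in anterior and 12.6 ± 5.64, 14.9 ± 5.59, 18.1 ± 6.57 and 20.3 ± 6.25 CPM in posterior libraries, and rose by 1.33 ± 0.34 in C57BL/6J (SE; adjusted p = 0.0315) and 1.62 ± 0.29 in B6D2F1N mice (adjusted p = 0.00299). Dnah12 rose by 6.5 ± 1.36 in C57BL/6J (SE; adjusted p = 0.00867) and 6.04 ± 0.88 in B6D2F1N mice (adjusted p = 0.000499), from a median of 0 CPM in the anterior libraries of both strains. Dnah7a had 3.75 ± 0.422, 1.48 ± 0.320, 3.27 ± 2.02 and 2.2 ± 1.89 CPM in anterior and 5.74 ± 2.02, 4.55 ± 2.03, 6.37 ± 2.03 and 7.33 ± 2.83 CPM in posterior libraries, with log2 fold changes of 0.82 ± 0.42 in C57BL/6J (SE; adjusted p = 0.433) and 1.72 ± 0.48 in B6D2F1N mice (adjusted p = 0.0496). Its paralog Dnah7b, on the same chromosome, had 2.44 ± 1.44, 2.95 ± 0.436, 3.26 ± 1.42 and 3.14 ± 1.33 CPM and 4.20 ± 0.669, 4.43 ± 2.43, 3.98 ± 2.38 and 10.0 ± 4.25 CPM, with log2 fold changes of 0.76 ± 0.52 in C57BL/6J (SE; adjusted p = 0.611) and 1.01 ± 0.36 in B6D2F1N mice (adjusted p = 0.151). Of the windows of Dnah7a, 27.8% also occur in other genes, mainly Dnah7b, and 21.9% of those of Dnah7b, mainly in Dnah7c, so that the counts of both are uncertain to that extent. The inner arm chains Dnah2, Dnah3, Dnah6 and Dnah10 were not called in either strain, with log2 fold changes of 1.59 ± 0.81, 1.95 ± 0.84, 1.54 ± 0.68 and 1.62 ± 0.90 in C57BL/6J and 1.79 ± 0.50, 1.44 ± 0.67, 2.50 ± 0.71 and 1.03 ± 0.57 in B6D2F1N mice (SE).

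The cilia and flagella associated proteins of the Cfap series gave 4 calls in C57BL/6J and 7 in B6D2F1N mice, out of 11 members. Cfap44, part of the tether of an inner arm dynein, was the 1 member whose portions did not overlap in either strain, with 0.230 to 5.06 CPM in anterior and 7.53 to 28.8 CPM in posterior libraries of C57BL/6J and 0.950 to 5.08 and 6.23 to 47.6 CPM in those of B6D2F1N mice. Over all genes tested, every posterior library lay above every anterior one in 0.532% in C57BL/6J, 0.0540% in B6D2F1N mice and 0.0282% in both, against 4, 1 and 1 of the 42 members. Cfap44 rose by 2.93 ± 0.45 in C57BL/6J (SE; adjusted p = 0.000702) and 2.51 ± 0.37 in B6D2F1N mice (adjusted p = 0.000599). Its partner Cfap43 had log2 fold changes of 2.08 ± 0.80 in C57BL/6J (SE; adjusted p = 0.216) and 1.95 ± 0.52 in B6D2F1N mice (adjusted p = 0.0388) and was called in B6D2F1N mice alone. Cfap45 and Cfap46 were called in both strains, Cfap45 with 1.41 ± 0.32 in C57BL/6J (SE; adjusted p = 0.0153) and 1.53 ± 0.28 in B6D2F1N mice (adjusted p = 0.00314), and Cfap46, of the central apparatus, with 1.65 ± 0.44 in C57BL/6J (SE; adjusted p = 0.0451) and 2.52 ± 0.38 in B6D2F1N mice (adjusted p = 0.000723). Cfap52 and Cfap70 were called in B6D2F1N mice (3.90 ± 0.73 and 2.23 ± 0.56), where their adjusted p-values were 0.00378 and 0.0271, and had 0.64 ± 0.89 and 0.84 ± 0.62 in C57BL/6J mice. Cfap126, a protein of basal bodies and axonemes also called Flattop, had 0.621 ± 0.567, 1.00 ± 0.566, 0.914 ± 0.339 and 1.10 ± 1.31 CPM in anterior and 2.94 ± 1.72, 5.85 ± 5.75, 5.42 ± 2.70 and 10.9 ± 7.67 CPM in posterior libraries, and log2 fold changes of 2.26 ± 0.71 in C57BL/6J (SE; adjusted p = 0.102) and 3.25 ± 0.64 in B6D2F1N mice (adjusted p = 0.00551). Cfap53 had 0 counts in all 6 anterior libraries of C57BL/6J mice. Set against 3 counts in each of these, its mean posterior level over 8 libraries was at least 1.57-fold higher. The posterior libraries were themselves low, at 0 to 0.534 CPM. Cfap53 was higher in the posterior portion of 4 of 6 mice and was not called, so that a rise is not established. With Cfap53 at this bound, the median log2 fold change of the 42 genes in C57BL/6J mice was 1.5. Cfap54, Cfap65 and Cfap69 had log2 fold changes of 1.13 ± 0.31, 1.22 ± 0.42 and 0.13 ± 0.36 in C57BL/6J and 0.69 ± 0.22, 1.16 ± 0.41 and 0.64 ± 0.35 in B6D2F1N mice, of which Cfap54 in C57BL/6J was called (adjusted p = 0.0481).

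The ruler, docking and regulatory proteins were called in B6D2F1N mice for the rulers only. Ccdc39, which with Ccdc40 sets the spacing of the dynein arms, had 17.9 ± 3.56, 26.0 ± 11.8, 29.7 ± 7.39 and 26.8 ± 5.55 CPM in anterior and 29.9 ± 6.76, 29.3 ± 19.8, 50.8 ± 25.9 and 47.2 ± 12.7 CPM in posterior libraries. It rose in B6D2F1N mice by 0.74 ± 0.15 (adjusted p = 0.00897) and had 0.62 ± 0.21 in C57BL/6J mice (adjusted p = 0.146). Of the windows of Ccdc39 13.2% also occur in other genes, mainly Ttc14, and the strand setting of the counting was not given in the sources used here. Its partner Ccdc40 rose in B6D2F1N mice by 3.86 ± 0.79 (adjusted p = 0.00716) and had 0.26 ± 1.38 in C57BL/6J mice, the largest p-value of any member there (adjusted p = 0.978). Ccdc103, which helps to attach dynein arms, had 3.50 ± 0.413, 2.52 ± 2.72, 2.74 ± 2.21 and 3.94 ± 1.82 CPM in anterior and 6.88 ± 2.08, 3.43 ± 0.944, 6.14 ± 2.45 and 5.14 ± 2.60 CPM in posterior libraries, and Drc1, of the nexin-dynein regulatory complex, had 18.2 ± 5.79, 18.4 ± 1.02, 11.4 ± 6.03 and 15.8 ± 5.80 CPM and, in the posterior portion, 22.8 ± 6.73, 19.3 ± 5.56, 25.2 ± 12.4 and 22.7 ± 9.14 CPM. Neither was called, with log2 fold changes of 0.98 ± 0.48 and 1.08 ± 0.53 for Ccdc103 and 0.28 ± 0.26 and 0.86 ± 0.31 for Drc1 in C57BL/6J and B6D2F1N mice.

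The adenylate kinases of cilia, which regenerate adenine nucleotides, are represented by Ak7 and Ak8. Ak7 had 1.62 ± 1.74, 0.118 ± 0.0956, 0.261 ± 0.395 and 1.30 ± 2.90 CPM in anterior and 1.39 ± 1.49, 7.86 ± 8.07, 6.06 ± 4.67 and 7.90 ± 7.74 CPM in posterior libraries. It rose in B6D2F1N mice by 5.66 ± 0.95 (adjusted p = 0.0017), in 10 of 10 mice, and had 1.36 ± 1.58 in C57BL/6J mice (adjusted p = 0.816), in 3 of 6 mice. Ak8 had 0.14 ± 0.43 and 0.84 ± 0.62 (adjusted p = 0.952 and 0.555), with 5.89 ± 2.90 CPM in anterior and 5.66 ± 2.59 CPM in posterior libraries of C57BL/6J mice. Mlf1 had 1.59 ± 0.855, 0.424 ± 0.317, 0.956 ± 0.852 and 1.04 ± 1.39 CPM in anterior and 2.89 ± 1.40, 8.23 ± 7.12, 8.22 ± 3.29 and 9.65 ± 6.94 CPM in posterior libraries, and log2 fold changes of 1.83 ± 0.70 in C57BL/6J (SE; adjusted p = 0.213) and 3.84 ± 0.63 in B6D2F1N mice (adjusted p = 0.00144). A test of whether the change between portions differed between the strains, with an interaction term in edgeR over 29437 genes, called 0% of genes and 0 members, and DESeq2 called 0% and 0 members. At an unadjusted p under 0.05 there were 2 members, Cfap52 and Ak7, beside 2.96% of all genes. The strains were therefore not shown to differ in any member, Ak7 and Cfap52 included (adjusted p = 1.00 and 1.00).

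**Figure D3:**
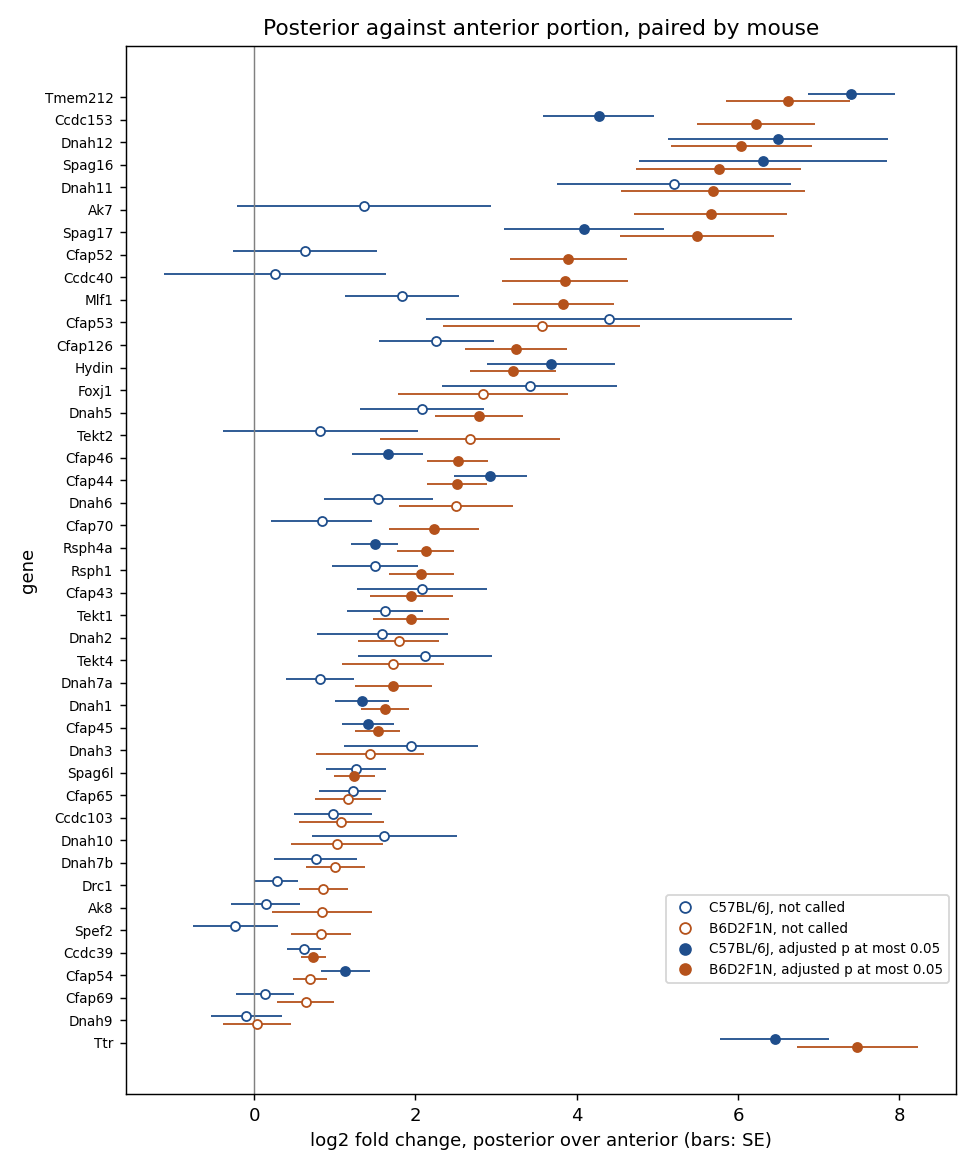
Log2 fold change between posterior and anterior libraries of the same mouse for the 42 cilia genes and Ttr, with bars of 1 SE, in C57BL/6J (6 mice) and B6D2F1N (10 mice); filled points passed an adjusted p of 0.05. Tmem212 stands highest of the members (7.40 and 6.62), the lowest are Spef2 in C57BL/6J (-0.24) and Dnah9 in B6D2F1N mice (0.04), and the value of Cfap53 in C57BL/6J rests on 0 counts in the anterior libraries and is no measure of size.

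A list of 44 other genes of the motile axoneme, none of them among the 42 members, was set beside them. In C57BL/6J mice 4 of the 43 tested were higher and none lower (median log2 fold change 1.28), and in B6D2F1N mice 21 were higher and none lower (median 2.25), led by Spag8 (2.62 ± 0.27, adjusted p = 3.32e-05) and Nek5 (6.57 ± 0.75, adjusted p = 5.42e-05). Genes of intraflagellar transport and of the primary cilium, which neurons and astrocytes also use, gave no higher call. Of 30 such genes none was higher and 1 was lower in each strain, with medians of 0.11 and 0.16, and the lower gene was in both Sstr3, the somatostatin receptor of neuronal cilia (-2.06 ± 0.38, adjusted p = 0.00351, and -2.22 ± 0.38, adjusted p = 0.00182). Of 10 further ependymal genes, none was called in C57BL/6J and 4 were higher in B6D2F1N mice (medians 0.69 and 1.64), among them Calml4 (6.68 ± 0.70, adjusted p = 3.77e-05) and Dynlrb2, a dynein light chain (4.16 ± 0.78, adjusted p = 0.00406).

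Some choroid plexus genes also rose in the posterior portion. Of 18, 9 were higher in the posterior portion of C57BL/6J and 16 in that of B6D2F1N mice, none was lower, and the median log2 fold changes were 3.07 and 5.20. Ttr was at 4.31, 4.77, 2.65 and 6.85 CPM in C57BL/6J standard, 20.5 and 7.57 in C57BL/6J enriched, 5.93, 8.68, 3.19, 2.37 and 19.1 in B6D2F1N standard and 886, 39.8, 2.65, 11.3 and 8.46 CPM in B6D2F1N enriched anterior libraries. In posterior libraries it was at 1429, 399, 885 and 196 CPM in C57BL/6J standard, 107, 967, 1303 and 177 in C57BL/6J enriched and 1405, 324, 1753, 4413 and 2836 CPM in B6D2F1N standard mice. The 6 B6D2F1N enriched mice had 1086 at the lowest, 1709 at the median and 13688 at the highest CPM. The portions overlapped only through the anterior library of B6D2F1N enriched mouse 1, and Ttr rose by 6.45 ± 0.68 in C57BL/6J (SE; adjusted p = 1.38e-05) and 7.48 ± 0.75 in B6D2F1N mice (adjusted p = 3.32e-05). The 18 genes summed to 516 to 2715 CPM in anterior and 1008 to 21871 CPM in posterior libraries. Meningeal fibroblast markers summed to 83.4 to 193 CPM in anterior and 134 to 1876 CPM in posterior libraries, with 1 of 10 called higher in each strain, the collagen-binding proteoglycan gene Dcn (5.80 ± 0.33, adjusted p = 9.45e-09, and 2.97 ± 0.67, adjusted p = 0.0145). Of 10 astrocyte markers 3 were higher in C57BL/6J, and 2 were higher and 1 lower in B6D2F1N mice, with Gfap higher in both (1.38 ± 0.23, adjusted p = 0.00152, and 1.93 ± 0.40, adjusted p = 0.00873). Of 10 markers of excitatory neurons 1 was higher in each strain and 5 and 4 were lower, and of 10 markers of inhibitory neurons 3 and 2 were lower. Oligodendrocyte and endothelial markers gave no call, and of 10 microglia markers 2 were lower in B6D2F1N mice. The part of other cell types in the differences of the cilia genes was not tested.

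Within the posterior libraries, the cilia genes varied together. Over the 861 pairs of members, Spearman's rho of CPM across the 19 posterior libraries had a median of 0.50 (quartiles 0.32 and 0.63), beside 0.005 (quartiles -0.177 and 0.188) over all pairs of the 27871 genes with at least 10 counts in these libraries. These correlations share libraries and depth and are given as a description. The 153 pairs of choroid plexus genes had a median rho of 0.60, and the 756 pairs of a cilia gene and a choroid plexus gene one of 0.42, so that the 2 groups of genes were also linked with each other. The summed cilia genes and the summed choroid plexus genes had a rho of 0.80 over the 19 libraries. In the 16 anterior libraries the medians were 0.06 for pairs of members, beside 0.006 for pairs of all genes, 0.24 for pairs of choroid plexus genes and 0.08 between the groups, and the sums had a rho of -0.09.

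Each member was set against the sum of the other 41 in the posterior libraries. Of the 42, 35 had a rho above 0.5, led by Cfap54 and Cfap46 (0.84 each), Rsph1 (0.83) and Cfap65 (0.80). Over all 27871 genes 3.62% had a rho above 0.5 with the sum of the 42, and in anterior libraries it was 3 of 42 members, against 2.25% of genes. The lowest were Ccdc103 (0.21), Dnah9 (0.37), Dnah7a (0.41), Dnah1 and Foxj1 (0.43 each), Cfap53 (0.47) and Drc1 (0.48). For 38 of 42 members the rho with the other members was larger than that with the choroid plexus sum, with medians of 0.64 and 0.52. The difference was widest for Dnah11, Dnah12 and Tekt2, whose rho with the choroid plexus sum was 0.38, 0.39 and 0.39, and the rho with the choroid plexus sum was the larger one for Rsph1 (0.84 against 0.83), Ccdc153 (0.72 against 0.70), Cfap53 (0.51 against 0.47) and Ccdc103 (0.35 against 0.21).

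The libraries with the most cilia RNA were not in every case those with the most Ttr or the highest sum of choroid plexus genes. C57BL/6J enriched mouse 3 had the highest cilia sum of the 19 posterior libraries (918 CPM) and stood only at place 11 for Ttr (1303 CPM), with 2.92 CPM of choroid plexus genes for each CPM of cilia genes. Its choroid plexus sum of 2683 CPM was nevertheless the highest of the 8 posterior libraries of its strain and above the median of the 19 (2299 CPM). B6D2F1N enriched mouse 4, at place 4 for cilia, was at place 7 for Ttr (1691 CPM) with a ratio of 4.64. B6D2F1N enriched mice 1 and 3 were high in both, with Ttr at 13455 and 13688 CPM and ratios of 21.6 and 29.5. B6D2F1N standard mouse 5 had place 8 for cilia and place 4 for Ttr, with a ratio of 14.1. The ratio ranged from 2.92 to 29.5 in posterior libraries, a spread of which the lowest value belonged to the library richest in cilia transcripts.

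**Figure D4:**
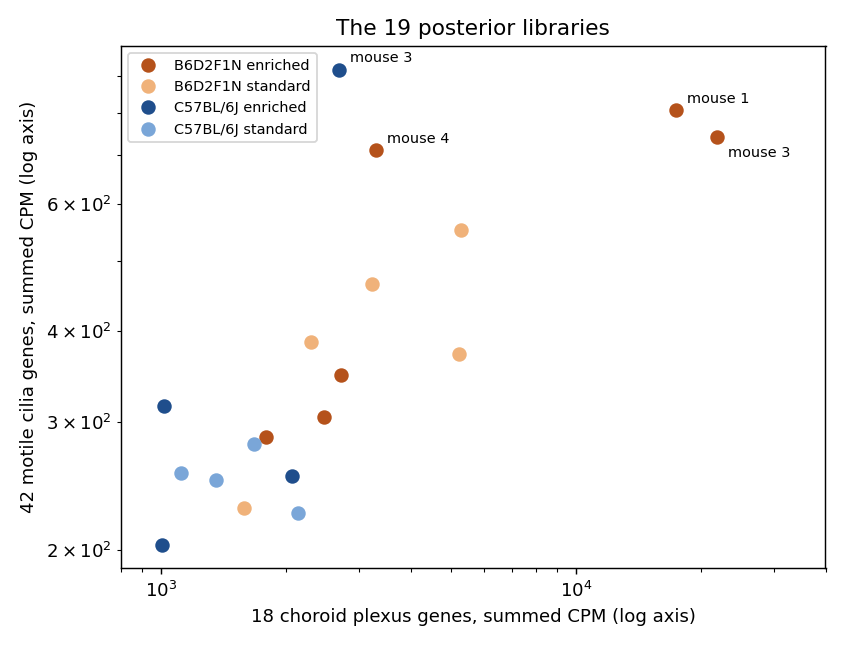
Summed CPM of the 42 motile cilia genes against summed CPM of 18 choroid plexus genes in the 19 posterior libraries, both on log axes, 1 point for each library, coloured by strain and housing. C57BL/6J enriched mouse 3 and B6D2F1N enriched mouse 4 lie high on the cilia axis at 2683 and 3304 CPM of choroid plexus genes, and B6D2F1N enriched mice 1 and 3 at 17449 and 21871 CPM.

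The correlations with Foxj1 and with Ttr were tested member by member on log2 CPM over the 19 posterior mice, in a family of 83 pairs (two-sided permutation test with 100000 resamples, Benjamini-Hochberg adjustment). With Foxj1, 11 of 41 members passed an adjusted p of 0.05 by Pearson's r and 13 by Spearman's rho (6 by r with a prior count of 0.5 in place of 2), and the median r over the 41 was 0.39. The weakest of these values, an r of 0.56 and a rho of 0.56, were reached by 3.28 and 3.80% of the 27870 other genes tested. Among those that passed were Spef2 (r = 0.71, rho = 0.71, permutation p = 0.00063 and 0.00074, adjusted p = 0.00941 and 0.00954), Cfap43 (r = 0.71, rho = 0.71, permutation p = 0.00054 and 0.00097) and Spag17 (r = 0.69, rho = 0.71, permutation p = 0.00097 and 0.00105). Without the 2 mice farthest from the median of Foxj1 their r was 0.68, 0.58 and 0.77. Hydin, Tmem212, Ak7, Cfap70, Ccdc153, Cfap65, Ccdc40 and Dnah10 were the other members that passed by r. Dnah1 (r = -0.00), Cfap45 (-0.01), Tekt4 (-0.02), Ccdc39 (0.04) and Rsph4a (-0.05) had values near 0 with Foxj1, and Ccdc103 had the lowest (r = -0.34, permutation p = 0.149).

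With Ttr, 12 of 42 members passed by r and 14 by rho, and the median r was 0.47. The weakest of these, an r of 0.56 and a rho of 0.55, were reached by 1.75 and 1.99% of all genes. Rsph1 (r = 0.85, rho = 0.76) and Cfap126 (r = 0.81, rho = 0.68) had permutation p-values of 1e-05 for r, the smallest that the resamples can give, and kept r = 0.81 and 0.71 without the 2 mice farthest from the median of Ttr. Ccdc39 followed (r = 0.73, rho = 0.69, permutation p = 0.00025 and 0.00115, and r = 0.62 without those mice), and the others were Ccdc153, Mlf1, Cfap54, Cfap44, Cfap70, Dnah6, Cfap46, Cfap69 and Cfap45. Foxj1 itself had r = 0.25 and rho = 0.29 with Ttr (permutation p = 0.295 and 0.225), and Tmem212 had r = 0.42 (adjusted permutation p = 0.129). Ccdc153 and Cfap70 passed with both by r, and these and Mlf1 by rho. That a member passed with Foxj1 and not with Ttr does not show that its correlations differ, since that difference was not tested. When the means of the 4 strain and housing groups were removed, 8 members passed with Foxj1 and 8 with Ttr by r, and 4 and 10 by rho.

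**Figure D5:**
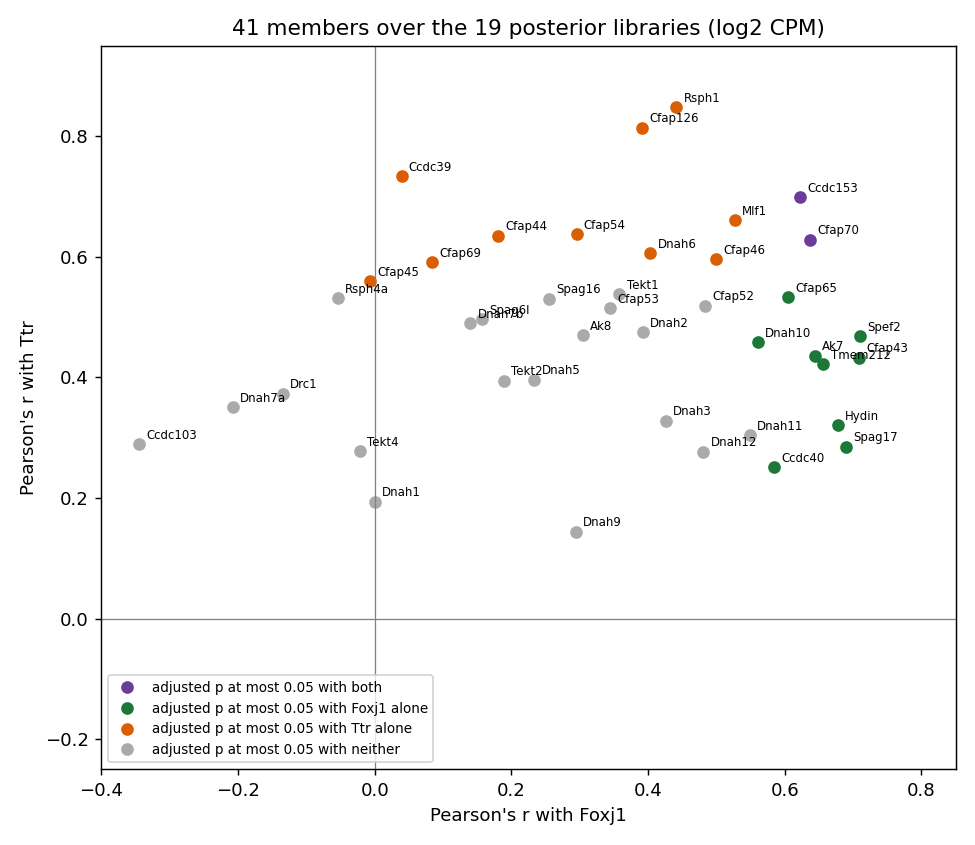
Pearson's r of log2 CPM with Foxj1 (horizontal) and with Ttr (vertical) over the 19 posterior libraries, 1 point for each of 41 members, coloured by which correlation passed an adjusted permutation p of 0.05. Rsph1 and Cfap126 lie highest on the Ttr axis (0.85 and 0.81), Spef2 and Cfap43 farthest along the Foxj1 axis (0.71 each), and Ccdc103 at the left edge.

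The promoters of the members were searched for the letters bound by RFX and forkhead factors, in RefSeq windows of GRCm38.p6 that run from 250 bases before to 50 bases after each annotated start. Windows were found for 35 of the 42 members. GTTGCC, the core of the X-box bound by RFX factors, read on both strands, was present in the windows of 16 of 35 members (45.7%) and of 14.1% of the 27025 genes with a window. A longer match, GTTGCC followed by 2 free bases and GG, was present in 4 members (11.4%) and 2.59% of genes, and the full X-box palindrome was found in 0 members and 0.355% of genes. The forkhead letters TGTTTAC were found in 3 members, Ak7, Cfap43 and Mlf1 (8.57%, against 4.05% of genes), and TGTTTGC in 4 members (11.4%, against 5.76%). These are matches of letters and not measured binding. The 6 members with a GTTGCC match before a start that is also the start of a transcript in GENCODE are shown, since their distances from the start can be read, on the strand of the gene from 5′ to 3′, with GTTGCC or its reverse complement GGCAAC in capitals and the match nearest to the start where there are several.
Hydin (chr8:110266934-110266976, plus strand): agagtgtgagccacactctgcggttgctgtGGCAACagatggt
Cfap44 (chr16:44394750-44394798, plus strand): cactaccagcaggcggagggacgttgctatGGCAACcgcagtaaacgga
Dnah10 (chr5:124725035-124725084, plus strand): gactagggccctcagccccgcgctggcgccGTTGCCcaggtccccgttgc
Spag16 (chr1:69826837-69826902, plus strand): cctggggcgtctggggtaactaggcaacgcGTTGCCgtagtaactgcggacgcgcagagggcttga
Mlf1 (chr3:67373962-67374027, plus strand): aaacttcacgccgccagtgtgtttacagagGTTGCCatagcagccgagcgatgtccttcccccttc
Dnah7a (chr1:53706949-53707014, minus strand): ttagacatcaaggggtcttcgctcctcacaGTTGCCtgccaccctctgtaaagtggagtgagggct
The match began 13 bases before the start in Hydin, 19 in Cfap44 and 20 in Dnah10, and 103, 105 and 200 bases before it in Spag16, Mlf1 and Dnah7a. Hydin, Cfap44 and Spag16 were called higher in the posterior portion of both strains, Mlf1 and Dnah7a in that of B6D2F1N mice, and Dnah10 in neither.

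Between genes, levels were compared per kilobase of exon. In posterior libraries the median level ran from 20.7 CPM per kilobase for Tmem212 down to 0.112 for Dnah10. Rsph1 (8.11), Drc1 (7.99), Ccdc39 (5.17), Tekt1 (4.42) and Rsph4a (4.07) followed Tmem212, and Foxj1 was at 0.618. In anterior libraries Drc1 was highest (5.75 CPM per kilobase), before Ak8 (3.28) and Ccdc39 (3.20), whereas Tmem212, Spag16, Spag17, Dnah11, Dnah12 and Cfap53 had a median of 0. With SDs over the 19 posterior libraries of 5.65 for Rsph1, 3.22 for Drc1 and 2.56 for Ccdc39 (CPM per kilobase, n = 19), neighbours in this order did not differ beyond their spread. Pooled over the 4 groups, Tmem212 thus went from a median of 0 in anterior libraries to the highest median in posterior ones. Its posterior mean was 33.1 and its SD 36.4 CPM per kilobase, and this place did not hold in every mouse. In C57BL/6J standard mice 1, 3 and 4 Tmem212 was at 3.80, 5.57 and 0.697 CPM over 0.716 kilobases. Drc1 was at 24.5, 27.9 and 25.8 CPM over 2.683 kilobases there, which is higher per kilobase, and in mouse 2 of this group Tmem212 was the higher one. Drc1 was also higher per kilobase in B6D2F1N standard mice 4 and 5 and enriched mouse 2. Tmem212 was at 9.78, 6.10 and 3.63 CPM in these, and Drc1 at 38.4, 33.6 and 15.9 CPM.

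The comparison of the strains asked whether B6D2F1N and C57BL/6J mice differ in cilia genes within a housing and portion. No member was called in any of the 4 comparisons (edgeR), in which 0.370% (standard anterior), 0.373% (standard posterior), 0.0639% (enriched anterior) and 0.394% (enriched posterior) of all genes were called. In standard posterior libraries 38 of 42 members were higher in B6D2F1N mice, with a median log2 fold change of 0.80 beside 0.05 for all genes, and 12 had an unadjusted p under 0.05, all of them higher, against 10.3% of all genes in either direction. This number ran from 6 without B6D2F1N standard mouse 3 to 15 without mouse 2 of that group, and was 7 without C57BL/6J or B6D2F1N standard mouse 4. In enriched posterior libraries 33 of 42 were higher, with a median of 0.40 beside 0.03, and 4 had an unadjusted p under 0.05, against 9.11%. Without C57BL/6J enriched mouse 3 the median was 1.00, 40 of 42 members were higher and 17 had an unadjusted p under 0.05. Without C57BL/6J enriched mouse 1 or 2 that number was 0, and without B6D2F1N enriched mouse 1, 4 or 5 it was 1 or 2. For fits with 1 mouse left out, here and in the housing comparisons, the share of all genes with such a p is not given. Their numbers of members therefore show only how far a count rests on single mice. The median was 0.21 to 0.26, with 25 to 33 members higher, without C57BL/6J enriched mouse 1, 2 or 4 or B6D2F1N enriched mouse 1 or 4. The 18 choroid plexus genes had medians of 1.27 and 2.41 in standard and enriched posterior libraries, with no call. Meningeal fibroblast markers had medians of -1.11 and -0.08 and oligodendrocyte markers 0.17 and -0.87, also with no call. The summed oligodendrocyte markers of enriched posterior libraries did not overlap between the strains (18349 to 28774 CPM in C57BL/6J and 6978 to 16528 CPM in B6D2F1N mice). The part of these cell types in the values of the members was not tested. In the anterior libraries 4 members in standard (3 higher and 1 lower) and 1 in enriched housing had an unadjusted p under 0.05, against 9.00 and 4.33% of all genes. Without mouse 1 of the B6D2F1N group they became 5 higher and 2 lower in standard and 2 higher and 2 lower in enriched housing. Choroid plexus genes had medians of 0.39 and 1.26 between the strains in standard and enriched anterior libraries, with no call. DESeq2 called 1, 3, 1 and 0 members in the order above, against 1.06, 1.56, 0.584 and 1.33% of all genes. The DESeq2 calls were Cfap54 in both anterior comparisons and Cfap54, Cfap46 and Mlf1 in standard posterior libraries, all higher in B6D2F1N mice. In standard posterior libraries edgeR called Cfap54 with no filter on low counts (adjusted p = 0.0485, beside 121 of 31437 genes). It also did so without B6D2F1N standard mouse 2 (adjusted p = 0.0306, beside 69 of 24719 genes). The 4 members in standard anterior libraries were Cfap54, Ccdc39 and Cfap53 (higher) and Spag17 (lower), the member in enriched anterior libraries was Cfap54, and the 4 in enriched posterior libraries were Dnah7b, Ccdc39, Cfap53 and Cfap54. The comparisons of strains and those of housings use the same libraries and are not independent of each other.

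Cfap54, of the central apparatus, had the smallest p-value of the members in 3 of the 4 strain comparisons. In anterior libraries it was at 9.08, 4.04, 5.62 and 6.85 CPM in C57BL/6J standard and 13.3, 13.3, 18.1, 19.7 and 18.0 CPM in B6D2F1N standard mice. In enriched housing it was at 9.03 and 8.12 CPM in C57BL/6J and 19.3, 26.5, 35.3, 16.4 and 33.0 CPM in B6D2F1N mice. The strains did not overlap in either housing in the anterior portion, and the share of all genes without such overlap was not worked out. In posterior libraries it was at 11.1, 10.0, 11.1 and 17.1 CPM in C57BL/6J standard, 35.9, 15.0, 24.0, 55.2 and 36.0 in B6D2F1N standard and 12.3, 7.28, 46.4 and 16.4 CPM in C57BL/6J enriched mice, and at 19.4 at the lowest, 37.8 at the median and 54.7 at the highest CPM in B6D2F1N enriched mice, so that the strains overlapped there. The log2 fold changes were 1.37 ± 0.30 (standard anterior, adjusted p = 0.0845), 1.44 ± 0.33 (standard posterior, 0.112), 1.63 ± 0.43 (enriched anterior, 0.754) and 0.88 ± 0.41 (enriched posterior, 0.543). The members with the largest p-values were Hydin in standard anterior (-0.04 ± 1.37), Cfap44 in standard posterior (-0.01 ± 0.38), Cfap43 in enriched anterior (0.05 ± 1.09) and Hydin in enriched posterior libraries (-0.03 ± 0.75). Ttr in the same order had 0.76 ± 0.54, 1.57 ± 0.63, 3.78 ± 2.02 and 3.16 ± 0.90, with adjusted p-values of 0.761, 0.467, 1.00 and 0.27.

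The comparison of the housings asked whether enriched housing went with a different level of cilia genes. No member was called in any of the 4 comparisons of strain and portion (edgeR). Over all genes 0% were called in anterior and 0.0163% in posterior libraries of C57BL/6J mice, and 0% and 0% in those of B6D2F1N mice. In the posterior libraries of C57BL/6J mice 35 of 42 members were higher in enriched housing, with a median log2 fold change of 0.99 beside 0.02 for all genes, and 15 higher and 1 lower member had an unadjusted p under 0.05, against 10.3% of all genes. Without enriched mouse 3, the library richest in cilia transcripts, the median was 0.24, and 5 higher and 3 lower members had an unadjusted p under 0.05. Without this mouse 172 of 24002 genes were called, against 4 of 24526 with it and 0 without any 1 of the other 7 mice, and none of the 172 was a member. The 10 oligodendrocyte markers had a median of 0.96 in the same comparison, and 1 of them, Mbp, which encodes myelin basic protein, was called higher in enriched mice (log2 fold change 1.97 ± 0.27, SE, edgeR adjusted p = 0.0366). Their summed levels were 8373 to 13106 CPM in standard and 18349 to 28774 CPM in enriched mice, which did not overlap. The choroid plexus genes had a median of 0.42, and the part of other cell types in this comparison was not tested. The smallest p-values were those of Cfap43 (2.53 ± 0.59, adjusted p = 0.186) and Foxj1 (3.75 ± 0.90, adjusted p = 0.195), and the largest that of Cfap45 (0.00 ± 0.32). For Foxj1 the posterior values of the 4 standard mice (0 to 0.867 CPM) lay below those of the 4 enriched mice (2.42 to 16.5 CPM). The share of all genes that separate in this way was not worked out, so that the separation is a description. Ttr in the same libraries had a log2 fold change of -0.20 ± 0.67 (adjusted p = 0.969). DESeq2 called 5 members in this comparison, against 1.30% of all genes. These were Foxj1, Cfap43, Ccdc40, Spag17 and Spef2, all higher in enriched housing. With no filter on low counts, edgeR called Foxj1 and Cfap43 (adjusted p = 0.0270 and 0.0171), beside 112 of 30299 genes called.

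In the posterior libraries of B6D2F1N mice 37 of 42 members were higher in enriched housing, with a median log2 fold change of 0.58 beside 0.03, and 4 had an unadjusted p under 0.05 (Dnah7b, Dnah10, Dnah9 and Cfap43), against 6.59% of all genes. When 1 mouse was left out, 1 to 9 higher members had such a p, the most without standard mouse 3, 7 or 8 without enriched mouse 2, 5 or 6, 2 without standard mouse 2 or enriched mouse 4, and 1 without standard mouse 1 or 5 or enriched mouse 1 or 3. The median ran from 0.39 without enriched mouse 1 to 0.80 without standard mouse 3. In the same comparison choroid plexus genes had a median of 1.33 and meningeal fibroblast markers one of 0.80, both above that of the members, with no call, and their part was not tested. Dnah7b had 1.32 ± 0.42 (adjusted p = 0.752) and Dnah9 0.95 ± 0.42 (adjusted p = 0.752), while Ccdc40 had the largest p-value (-0.10 ± 0.62). In anterior libraries 2 of the 40 members tested in C57BL/6J (Spag16 and Tmem212, 2 against 4 mice) and 4 of 42 in B6D2F1N mice (Spag17, Dnah2, Cfap54 and Cfap69) had an unadjusted p under 0.05, against 6.20 and 6.30% of all genes. With 1 mouse left out, those in C57BL/6J became 3 higher and 2 lower (standard mouse 2), 2 higher and 2 lower (enriched mouse 1), 1 higher and 1 lower (standard mouse 3) or 1 higher (standard mouse 4 or enriched mouse 3), and those in B6D2F1N mice 4 higher and 3 lower (enriched mouse 1), 2 higher (standard mouse 1) or 1 higher (enriched mouse 3). DESeq2 called 0 members in these 3 comparisons, against 0.0538% (B6D2F1N posterior), 0.437% (C57BL/6J anterior) and 0.0325% (B6D2F1N anterior) of all genes. Drc1 in C57BL/6J and Rsph4a in B6D2F1N mice had the largest p-values in anterior libraries (-0.00 ± 0.35 and 0.04 ± 0.73). In anterior libraries of C57BL/6J and B6D2F1N mice choroid plexus genes had medians of -0.21 and 1.88, with no call. Oligodendrocyte markers had medians of 0.83 and 0.43 there, also with no call, and the part of these cell types was not tested.

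Whether the effect of housing differed between the strains was tested with an interaction term in each portion. It called 0% of 26353 genes in anterior and 0% of 27871 genes in posterior libraries and 0 members in both, and DESeq2 called 0.00759 and 0.0574% of genes and 0 members. At an unadjusted p under 0.05 there were 1 member in anterior (Spag17) and 2 in posterior libraries (Ccdc40 and Foxj1), against 5.98 and 8.38% of all genes. For Foxj1 in posterior libraries the difference between the strains in the effect of enriched housing was -3.48 ± 1.26 (adjusted p = 0.491), a smaller effect in B6D2F1N mice that did not pass the threshold.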

How the data were processed

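RNA of laser-captured basolateral amygdala cells was sequenced as single reads of 72 bases from polyA-primed libraries. The deposited files hold raw counts per Ensembl gene, made by the authors with Trimmomatic, HISAT2 on GRCm38, SAMtools and HTSeq. The annotation release and the strand setting were not given in the sources used here. Rows that name no gene (no feature 13.7 to 26.4%, not unique 6.23 to 10.9%, ambiguous 3.06 to 3.74% of all counts) stayed out of library sizes and tests. No pair of libraries was identical. Symbols, positions and exon lengths came from GENCODE M21 and promoter windows from RefSeq.

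Genes with fewer than 10 counts over the libraries compared were left out. Counts were fitted with edgeR 4.0.16 (TMM, quasi-likelihood test, R 4.3.3) and p-values were adjusted by the method of Benjamini and Hochberg over all genes tested, with a threshold of 0.05. Portions were compared within a strain with the mouse as a block, on mice with both portions, and strains and housings within a portion. The labels give both portions of a mouse, which is where the pairing comes from. Deviations from group means correlated between the libraries of a mouse with r from -0.08 to 0.20 (median 0.03, over 0.1 in 3 of 16 pairs, 18187 genes). Mice were separate animals. Correlations used log2 CPM with a prior count of 2 (SciPy 1.17.1, 100000 resamples). The fit was also run on simulated data, of which no result is used here. DESeq2 1.42.0, its size factors, filterByExpr, no filter, no mouse block, 1 fit of all groups of a portion, leaving out each mouse, and a prior count of 0.5 were the alternatives. Each housing alone, and B6D2F1N enriched mice 1, 3 and 4 left out together, were added after seeing the data. Named are 21 members of all structural classes and Ttr in every group, in each comparison up to 8 called members with the smallest p-values and the member with the largest, and up to 4 genes of another list. Further members were named after their values were seen. The members and lists were chosen with earlier results of these data known.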

Additional observations from a re-analysis of the deposited data

Results flagged for a closer look

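In 168 checks of a gene or a summed list within a group of 4 to 6 libraries, 11 found a library far from the others of its group. The rule aims at about 1 in 20 checks by chance, a rate that was not tested for levels with many zeros. A gene at 0 in all other libraries of a group is flagged by any level in the last one. Checks of the same library are also not independent, and the 11 are given as a description. In 5 of them the library far from the others was the anterior one of B6D2F1N enriched mouse 1. It had 2.68 CPM of Spag16, 0.962 CPM of Dnah11 and 6.48 CPM of Ak7, each at 0 in the other 4 libraries, and 6.28 CPM of Ccdc153 against 0 to 0.0915 CPM. Its summed choroid plexus genes were at 2.71e+03 CPM, against 516 to 764 CPM. The part of choroid plexus or other cells in these cilia values was not tested.

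In the same group, Rsph4a was at 0.543 CPM in mouse 6, against 4.59 to 8.97 CPM. In anterior libraries of B6D2F1N standard mice, Ccdc103 was at 0 CPM in mouse 1, against 1.9 to 5.65 CPM. In their posterior libraries, Tekt1 was at 15.6 CPM in mouse 3, against 4.36 to 5.36 CPM, and Dnah9 at 1.41 CPM in mouse 5, against 6.11 to 9.71 CPM. In posterior libraries of C57BL/6J enriched mice, Spag16 was at 13.3 CPM in mouse 3, against 0.783 to 1.21 CPM in the other 3. In those of C57BL/6J standard mice, Drc1 was at 12.9 CPM in mouse 2, against 24.5 to 27.9 CPM in the other 3.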

How the results depend on the processing

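Of 393 alternative values, 348 kept their direction and side of the threshold, and the cause of the other changes was not tested. Members higher in the posterior portion of C57BL/6J mice numbered 21 with no filter on low counts, 5 in standard (4 mice) and 10 in enriched housing alone (2 mice), and 7 to 12 when 1 mouse was left out (7 without enriched mouse 3). Over all genes 629 of 31674 were called higher there with no filter, and 350 of 24172 and 161 of 22081 in standard and enriched housing alone. In B6D2F1N mice the members called numbered 8 in standard and 15 in enriched housing alone, 13 without enriched mice 1, 3 and 4, and 21 to 27 when 1 mouse was left out. Over all genes 83 and 193 of 25338 were called higher in standard and enriched B6D2F1N mice alone, and 125 of 26332 without the 3 mice. Without the mouse block that pairs the portions, 10 members were called in C57BL/6J and 22 in B6D2F1N mice. Over all genes 312 of 25751 and 553 of 27761 were called higher there. DESeq2 called 1 member between strains in standard anterior, 3 in standard posterior and 1 in enriched anterior libraries, and 5 between housings in C57BL/6J posterior libraries. With no filter, 1 member was called between strains in standard posterior and 2 between housings in C57BL/6J posterior libraries. Leaving out 1 mouse gave 0 to 1 member between strains in standard posterior libraries, the 1 being Cfap54 without B6D2F1N standard mouse 2. With a prior count of 0.5, 6 members were called with Foxj1. The log2 fold change of Dnah9 between portions, which passed no threshold, changed sign in C57BL/6J without the mouse block (0.033) and in enriched housing alone (0.79), and ran from -0.42 to 0.36 when 1 mouse was left out. In B6D2F1N it was -0.0083 without the block, -0.71 in standard housing alone and -0.48 without the 3 mice, and ran from -0.17 to 0.34 when 1 mouse was left out. Anterior levels of some members lay near the limit of 3 counts, which limits the precision of their differences between anterior groups.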
